A study of Mus musculus with 16 samples.

Results

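The genes described are Bcas3, which encodes rudhira, and 8 genes of the cytoskeleton that rudhira is known to bind or work with: Vim, the tubulin genes Tuba1a, Tuba1b, Tubb2b, Tubb5, Tubb6 and Tubg1, and Mapre1. They were chosen by symbol and not by a cut on their values, though with earlier results of these data known. Every probe on an Illumina bead array of the mouse transcriptome whose symbol was 1 of these 9 was taken, which gave 18 of 45281 probes and 9 of 19038 genes. The study compared conceptuses homozygous for a germline deletion of exon 6 of rudhira with their wild-type counterparts. All came from matings of heterozygotes in strain C57BL/6J and were dissected at embryonic day 9.5, when embryo and yolk sac were separated. The 4 groups were mutant yolk sac, wild-type yolk sac, mutant embryo and wild-type embryo, each with 2 RNA samples from 4 conceptuses in all, and each sample was read on 2 arrays. The deletion was carried in every cell. By their labels the mutants were growth retarded and had abnormal vascularization, and differences of stage and of genotype cannot be told apart here. With 2 conceptuses a genotype, a p-value measures no more than the spread between the samples at hand.

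Rudhira is a WD-repeat protein of the cytoskeleton that is expressed in early blood and endothelial cells of the mouse and is known to bind microtubules and the intermediate filament protein vimentin in migrating endothelial cells. Microtubules are polymers of alpha- and beta-tubulin dimers, nucleated by gamma-tubulin and tracked at their growing ends by EB1, the product of Mapre1. Vimentin forms the intermediate filaments of mesenchymal and endothelial cells and of neural progenitors, and the beta-tubulin encoded by Tubb2b and the alpha-tubulin encoded by Tuba1a are those of the developing nervous system. In the yolk sac, endothelium and blood cells lie between mesoderm and an outer visceral endoderm.

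Each array detected 17382 to 19576 probes. Arrays differed in brightness: the 75th percentile over probes was 67.0 to 74.8 on mutant yolk sac arrays, 97.6 to 141 on wild-type yolk sac arrays, 109 to 124 on mutant embryo arrays and 110 to 126 on wild-type embryo arrays, so mutant yolk sac arrays were the dimmest. Of 18 probes, 14 were detected on all 16 arrays, 3 on none and 1, a second Tubb5 probe, on 3. All 9 genes therefore kept a probe for testing, and repeat arrays of an RNA sample differed by 0.07 on the log2 scale at the median of 72 pairs and by 0.25 at most. Visceral endoderm markers were higher in all 4 yolk sacs than in all 4 embryos, and wild-type embryo 1 stood apart as the lowest. The 12 visceral endoderm markers summed to a signal of 87614 and 91055 in mutant yolk sacs and 115508 and 139669 in wild-type yolk sacs, and to 8099 and 12337 in mutant embryos and 749 and 18405 in wild-type embryos, with wild-type embryo 1 the low one. The primitive erythroid markers summed to 68728 in mutant embryo 1 and to 37155 in the other sample labelled as a mutant embryo, against 74019 and 75007 in wild-type embryos.

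Promoters are shown for Bcas3, the gene that was mutated, for Vim, the filament gene with genotype differences of opposite sign in the tissues, and for the alpha-tubulin genes Tuba1a and Tuba1b, which lie on the same strand of chromosome 15 and had unlike differences between the tissues. Of the 9 members, 6 had an entry in the RefSeq promoter table of build GRCm38.p6, and each sequence is the 250 bases before the start site given there, 5′ to 3′. The windows lie at chr11:85352914-85353163 (plus strand) for Bcas3, chr2:13574061-13574310 (plus strand) for Vim, chr15:98953502-98953751 (minus strand) for Tuba1a and chr15:98934391-98934640 (minus strand) for Tuba1b. The Bcas3 window ends inside the gene's span, which begins at 85353110, and the CCAAT match nearest the window's end lies within that span. The other windows end where their genes begin. Capitals mark, on either strand, the letters TATAAA of the TATA box, the letters of the CCAAT box, which are its name, and the letters GGGCGG of the GC box.
Bcas3: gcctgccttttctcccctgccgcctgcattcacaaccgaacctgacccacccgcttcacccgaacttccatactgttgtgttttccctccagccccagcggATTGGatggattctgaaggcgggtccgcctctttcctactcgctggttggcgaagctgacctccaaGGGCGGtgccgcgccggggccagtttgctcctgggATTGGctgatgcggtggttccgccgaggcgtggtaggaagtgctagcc
Vim: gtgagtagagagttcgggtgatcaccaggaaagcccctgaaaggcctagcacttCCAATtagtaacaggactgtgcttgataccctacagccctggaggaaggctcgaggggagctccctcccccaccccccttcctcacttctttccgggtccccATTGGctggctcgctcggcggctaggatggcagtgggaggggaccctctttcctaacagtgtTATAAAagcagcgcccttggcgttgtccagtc
Tuba1a: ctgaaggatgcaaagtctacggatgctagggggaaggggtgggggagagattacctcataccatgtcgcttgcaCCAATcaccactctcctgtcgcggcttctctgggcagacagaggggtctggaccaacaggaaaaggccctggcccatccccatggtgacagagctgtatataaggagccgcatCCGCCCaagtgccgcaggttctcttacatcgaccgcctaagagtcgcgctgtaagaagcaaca
Tuba1b: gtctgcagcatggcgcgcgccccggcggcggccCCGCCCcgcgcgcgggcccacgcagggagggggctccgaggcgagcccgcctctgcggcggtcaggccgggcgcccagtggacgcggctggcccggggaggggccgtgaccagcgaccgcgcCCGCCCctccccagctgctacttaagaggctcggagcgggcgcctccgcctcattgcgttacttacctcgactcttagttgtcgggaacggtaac
In the Vim window the TATA box stood at 1 place and the CCAAT box at 2. In the Bcas3 window the CCAAT box stood at 2 places and the GC box at 1, with no TATA box. In the Tuba1a window the CCAAT box and the GC box stood at 1 place each. In the Tuba1b window the GC box stood at 2 places, with neither of the others, and its bases were 75.6% G or C, against 56.8% in Tuba1a, 58.4% in Vim and 62.4% in Bcas3. Over 32851 promoter windows of the same length, 12.4% held the letters of the TATA box, 33.8% those of the CCAAT box and 32.7% those of the GC box, and no pair of these motifs shares letters in the windows shown. These matches describe letters only.

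Bcas3 (chr11:85353110-85826058) was brightest in wild-type yolk sacs. The detected probe gave a signal of 234 and 278 in mutant yolk sacs, against 759 and 1244 in wild-type yolk sacs, and the other Bcas3 probe was detected on 0 arrays. In embryos it gave 270 in mutant embryo 1 and 664 in the sample labelled mutant embryo 2, against 331 and 391 in wild-type embryos. The yolk sac groups lay apart, while the mutant embryos lay on either side of both wild-type embryos. As normalized log2 levels, the yolk sac means were 8.49 ± 0.06 in mutants and 9.76 ± 0.20 in wild types (SD, n = 2 each), a difference of -1.27 (SE 0.33, 95% confidence interval -2.06 to -0.49) that did not pass over all tested genes (limma adjusted p = 0.0989). In embryos the means were 8.69 ± 0.83 in mutants and 8.48 ± 0.20 in wild types (SD, n = 2 each), a difference of 0.21 (interval -0.57 to 1.00, adjusted p = 0.880). Leaving out the sample labelled mutant embryo 2 gave -0.37 in embryo (adjusted p = 0.924), and in the pair of embryos named in the series design, mutant embryo 1 and wild-type embryo 2, it was -0.51 (adjusted p = 0.815). Where the probe lies relative to exon 6 is not known here, so its signal is no check of the genotype labels, and every embryo value below that uses both mutant embryos draws on the sample labelled mutant embryo 2.

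**Figure D1:**
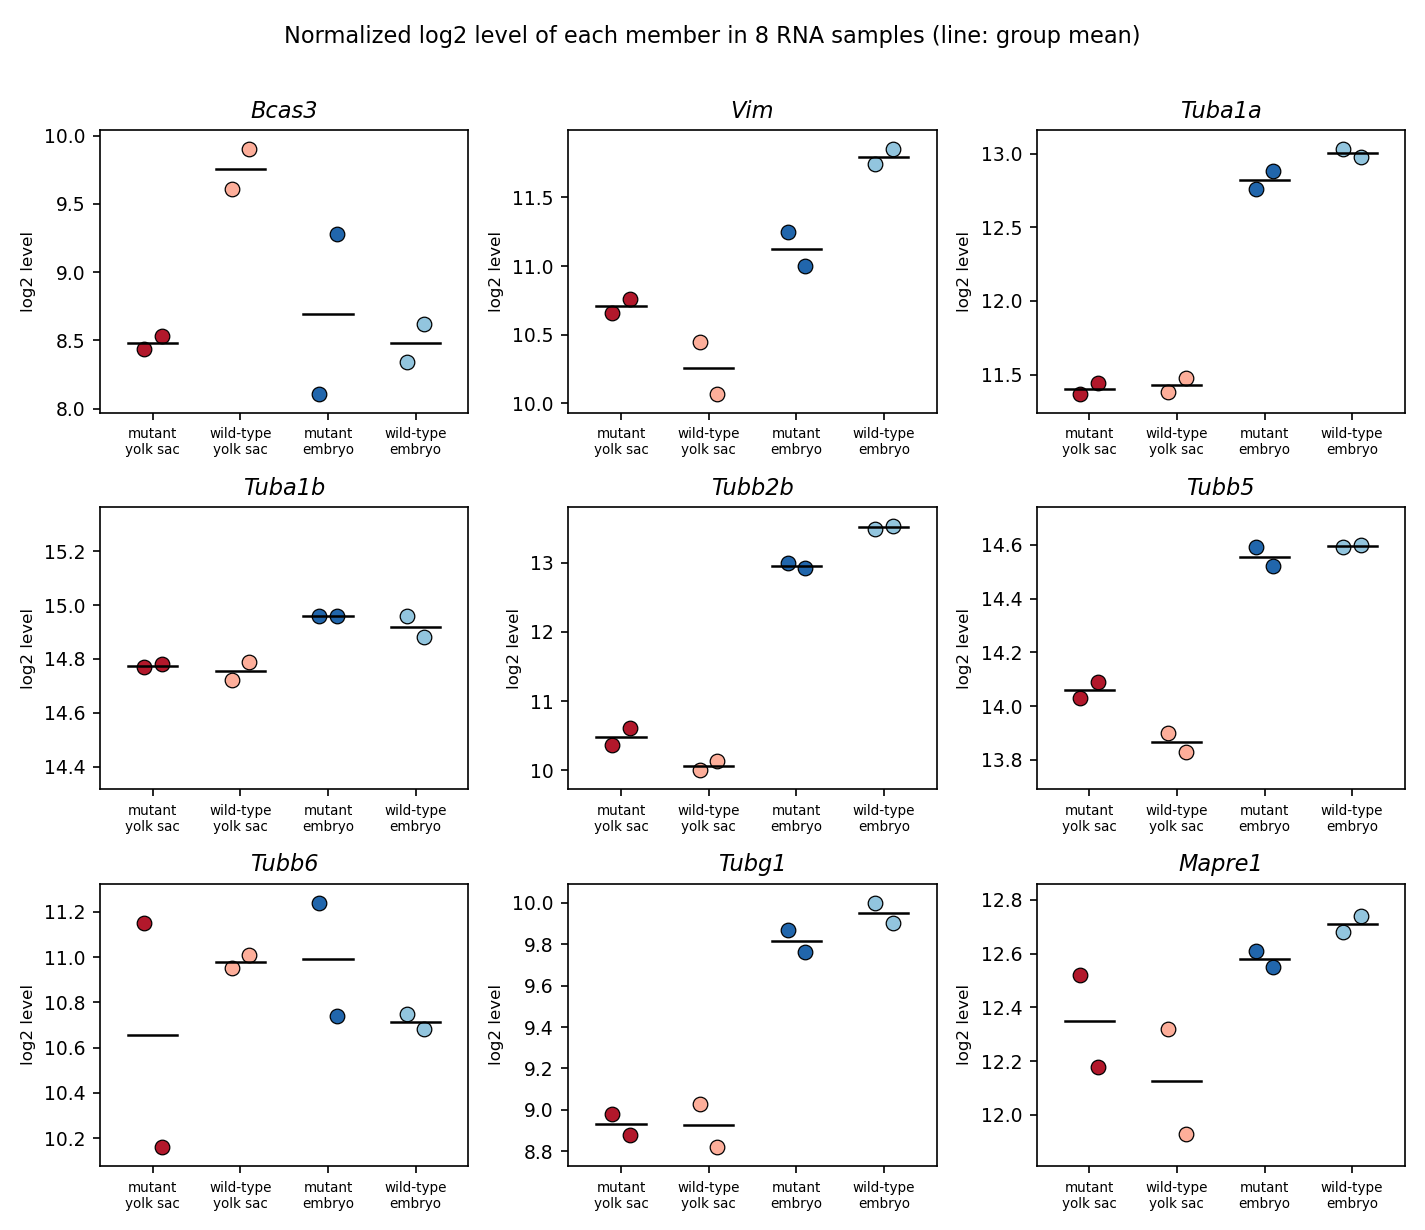
Normalized log2 level of each of the 9 genes (vertical axes, each gene with its own range) in the 8 RNA samples, with mutant yolk sac, wild-type yolk sac, mutant embryo and wild-type embryo from left to right; points are RNA samples and lines are group means. Bcas3 stands at 9.61 and 9.90 in wild-type yolk sacs and below that range in the other 6 samples, while Tubb2b stands lower in all yolk sacs and at 12.93 or above in all embryos.

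Vim (chr2:13574311-13582826), the vimentin gene, had lower signals in mutant than in wild-type embryos. The detected probe gave 2376 and 2171 in mutant embryos, against 3284 and 3530 in wild-type embryos. In yolk sacs it gave 1256 and 1492 in mutants, against 1369 and 1395 in wild types, so the signals before scaling overlapped there. After normalization, which lifts the dim mutant yolk sac arrays, the yolk sac levels were 10.66 and 10.76 in mutants, against 10.45 and 10.07 in wild types, and no longer overlapped. The embryo levels were 11.25 and 11.00 in mutants, against 11.74 and 11.85 in wild types. The genotype difference was 0.45 in yolk sac (SE 0.15, interval 0.11 to 0.80, adjusted p = 0.148) and -0.67 in embryo (SE 0.15, interval -1.02 to -0.32, adjusted p = 0.0835), and neither passed. With wild-type yolk sac 2 left out, the yolk sac difference dropped to 0.27 (adjusted p = 0.438). In bulk tissue, fewer cells of a type and less RNA per cell cannot be told apart, for Vim and for all genes below. A second Vim probe was detected on 0 arrays.

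Markers of cells that make vimentin were measured beside it. The 17 tested endothelial markers had mean log2 levels of 8.90 and 8.91 in mutant yolk sacs and 8.63 and 8.65 in wild-type yolk sacs. Before scaling their summed signals overlapped, at 9573 and 10595 in mutant yolk sacs and 10248 and 13502 in wild-type yolk sacs. Among the 17 markers 1, Pecam1, a junction protein of endothelium, rose, by 0.53 (limma adjusted p = 0.0499), and 0 fell, where 1.27% of all genes passed. The list's median was 0.34 where that of all genes was 0.00. The 8 mesenchyme markers had means of 8.36 and 8.24 in mutant yolk sacs and 8.56 and 8.76 in wild-type yolk sacs, with 0 past the threshold. In embryos the 6 neural progenitor markers summed to a signal of 2096 and 1986 in mutants and 3073 and 2781 in wild types, and Fabp7, which binds fatty acids in radial glia, and Hes5, a Notch target, fell. The endothelial markers had means of 8.27 and 8.26 in mutant embryos and 8.32 and 8.37 in wild-type embryos, a median difference of -0.03. Among them 1, Robo4, a receptor of endothelium, fell by 0.86 (adjusted p = 0.0400) and 0 rose. Of the mesenchyme markers 1, Prrx1, a transcription factor of limb and face mesenchyme, fell by 0.81 in mutant embryos, and the list's summed signal was 4239 and 3765 in mutants and 3633 and 4335 in wild types. Beside these embryo counts of 2 of 6, 1 of 17 and 1 of 8 markers, 2.13% of all genes passed. The part of these cell types in the Vim values was not tested.

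Tubb2b (chr13:34127008-34130354), a beta-tubulin of neurons and their progenitors, was the member with the most probes. Its brightest probe, the one used in the tests per gene, gave 7955 and 8145 in mutant embryos, against 11662 and 11621 in wild-type embryos. In yolk sacs the same probe gave 1018 and 1322 in mutants, against 998 and 1457 in wild types. Wild-type embryos thus lay above mutant embryos, and yolk sac signals overlapped before scaling. After normalization the yolk sac levels were 10.37 and 10.61 in mutants and 10.00 and 10.14 in wild types, a difference of 0.42 (SE 0.11, interval 0.17 to 0.68, adjusted p = 0.0970). The embryo levels were 12.99 and 12.93 in mutants and 13.49 and 13.53 in wild types, a difference of -0.55 (SE 0.11, interval -0.81 to -0.29, adjusted p = 0.0569). Neither passed.

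The other 4 detected Tubb2b probes allowed a look at the same transcript in the same samples. In embryos the second brightest gave 2878 and 2678 in mutants, against 4402 and 4398 in wild types, and the third gave 1155 and 1118 in mutants, against 1961 and 1919 in wild types. The fourth gave 702 and 705 in mutant embryos, against 1243 and 1221 in wild-type embryos, and the fifth 732 and 664 in mutants, against 1094 and 1211 in wild types. On each probe both mutant embryos lay below both wild-type embryos, as was so for 26.7% of all genes on the probe used for each. Fitted probe by probe, the embryo difference ran from -0.86 to -0.55 over the 5 probes, with adjusted p from 0.0272 to 0.128, and 2 of the 5 fell past the threshold, where 1.26% of 21193 probes passed in either direction. In yolk sacs the 5 probes gave -0.23 to 0.59, 4 above 0 and 1 below, with adjusted p of 0.115 or more (0.109% of all probes passed there), so the yolk sac direction was not the same on all probes. With the mean of the 5 probes in place of the brightest, Tubb2b fell by 0.76 in mutant embryos (adjusted p = 0.0181), and with a background offset of 50 by 0.55 (adjusted p = 0.0334). In the other 11 of 13 alternative settings it did not pass. The value was -0.54 in the pair of embryos named in the series design. The probes read 1 gene in the same RNA and are not replicates, and a sixth probe was detected on 0 arrays.

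**Figure D2:**
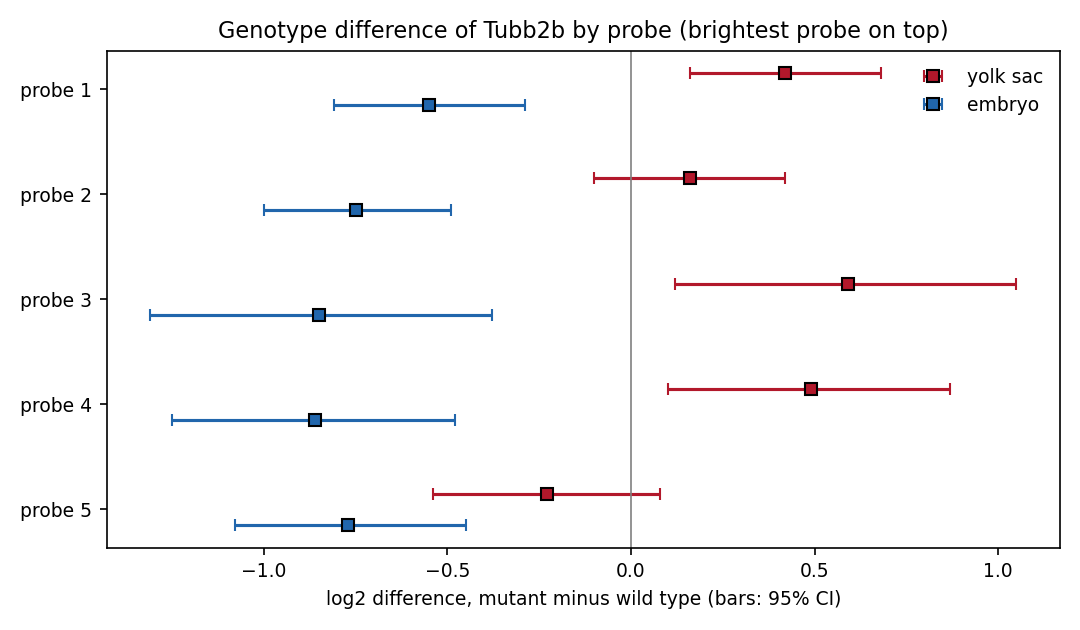
Log2 difference between mutant and wild-type samples for each of the 5 detected Tubb2b probes, brightest on top, with yolk sac above embryo in each pair (squares, with bars for the 95% confidence interval). All 5 embryo values lie between -0.86 and -0.55, and the yolk sac values lie between -0.23 and 0.59.

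The neuron markers moved with Tubb2b in embryos. Their 7 tested genes summed to a signal of 410 and 335 in mutant embryos and 1355 and 1512 in wild-type embryos. Of the 7, 6 fell and 0 rose. Of the 6 that fell, Dcx was undetected in mutant embryos and passed the detection filter through wild-type embryos alone. The count is therefore not read against the 2.13% of all genes that passed. In yolk sacs the same genes summed to 52.2 and 54.6 in mutants and 68.9 and 73.8 in wild types, and 3 of 7 were undetected in mutants and 4 of 7 in wild types. The neural progenitor markers summed to 44.6 and 66.2 in mutant yolk sacs and 43.9 and 77.3 in wild-type yolk sacs, with 5 of 6 undetected in both. The part of neurons in the Tubb2b values was not tested. Tubb3, a beta-tubulin used as a neuron marker, did not follow: it stood at 0.28 in mutant embryos (adjusted p = 0.385), on a probe detected on 3 of 4 mutant and 1 of 4 wild-type embryo arrays.

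Tuba1a (chr15:98949847-98953501), the alpha-tubulin of postmitotic neurons, showed no genotype difference past the threshold. Its brighter probe gave 2157 and 2446 in mutant yolk sacs, against 2629 and 3738 in wild-type yolk sacs, and 6834 and 7883 in mutant embryos, against 8193 and 7760 in wild-type embryos. The normalized difference was -0.03 in yolk sac (interval -0.25 to 0.19, adjusted p = 0.901) and -0.19 in embryo (interval -0.41 to 0.04, adjusted p = 0.497). After normalization both mutant embryos lay below both wild-type embryos, and the difference did not pass. The second probe gave 0.18 in yolk sac and -0.36 in embryo, with neither past it. Tuba1b (chr15:98931429-98934390), an alpha-tubulin found in most cell types, had signals of 25021 and 26607 in mutant yolk sacs and 27152 and 30347 in wild-type yolk sacs, and of 32491 and 32055 in mutant embryos and 31545 and 29940 in wild-type embryos. Its normalized differences were 0.02 in yolk sac (interval -0.18 to 0.22) and 0.04 in embryo (interval -0.16 to 0.24). The probe ranked between 1 and 18 by brightness among all 45281 probes on every array, and quantile normalization gives probes of equal rank the same value, so little difference could remain. Under median scaling the yolk sac difference of Tuba1b was 0.39 (adjusted p = 0.0803).

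Tubb5 (chr17:35833920-35838301), the beta-tubulin of most dividing cells, was also among the brightest probes, at ranks 31 to 147. It gave 13917 and 14643 in mutant yolk sacs, against 14510 and 17029 in wild-type yolk sacs, and 25453 and 24475 in mutant embryos, against 24548 and 24789 in wild-type embryos. The normalized difference was 0.20 in yolk sac (interval -0.01 to 0.40, adjusted p = 0.253; 0.41 under median scaling, adjusted p = 0.0728) and -0.04 in embryo (interval -0.24 to 0.17). Mutant yolk sacs lay above wild-type yolk sacs after normalization and the embryo groups overlapped. Tubb6 (chr18:67390731-67402749), a beta-tubulin of non-neuronal tissues, varied widely between samples of a group. It gave 1817 and 958 in mutant yolk sacs, against 1964 and 2718 in wild-type yolk sacs, and 2372 and 1806 in mutant embryos, against 1691 and 1578 in wild-type embryos. Its differences of -0.33 in yolk sac (interval -1.03 to 0.38) and 0.28 in embryo (interval -0.43 to 0.98) lay within that spread, and without mutant yolk sac 2 the yolk sac value was 0.17. Tubulin genes are close in sequence, and how much of one transcript's signal came from another was not tested.

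Tubg1 (chr11:101119904-101126423) encodes gamma-tubulin, which nucleates microtubules at the centrosome. It gave 357 and 368 in mutant yolk sacs, against 498 and 572 in wild-type yolk sacs, and 925 and 918 in mutant embryos, against 1030 and 938 in wild-type embryos. The lower signals of the mutant yolk sacs came with the dimmer arrays, and the normalized difference there was 0.01 (interval -0.25 to 0.26), with -0.14 in embryo (interval -0.39 to 0.12). Mapre1 (chr2:153741287-153773317), the EB1 gene, gave 4871 and 4127 in mutant yolk sacs, against 5051 and 5175 in wild-type yolk sacs, and 6176 and 6392 in mutant embryos, against 6430 and 6504 in wild-type embryos. Its normalized difference was 0.22 in yolk sac (interval -0.15 to 0.60, adjusted p = 0.478) and -0.13 in embryo (interval -0.51 to 0.24, adjusted p = 0.831). The yolk sac value of Mapre1 was 0.03 without wild-type yolk sac 2 and 0.05 without mutant yolk sac 1, 0.39 without mutant yolk sac 2 and 0.42 without wild-type yolk sac 1. Neither gene passed in the limma fit.

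Over the 9 genes, 0 passed in yolk sac and 0 in embryo at an adjusted p under 0.05, where 1.27% of 11329 tested genes passed in yolk sac and 2.13% in embryo. At an unadjusted p under 0.05 limma gave 3 of 9 in yolk sac (Vim and Tubb2b higher, Bcas3 lower in mutants), where 20.9% of all genes did so, and 2 of 9 in embryo (Vim and Tubb2b, both lower in mutants), where 12.5% did. The groups did not overlap for 4 members in yolk sac, 3 higher and 1 lower in mutants, where 47.9% of all genes did not overlap, 23.8% higher and 24.1% lower. In embryo they did not overlap for 5 members, all lower in mutants (Vim, Tuba1a, Tubb2b, Tubg1 and Mapre1), where 26.7% of all genes were lower and 25.2% higher in this way and 51.9% did not overlap in either direction. The median difference of the members was 0.02 in yolk sac and -0.13 in embryo, with 0.00 for all genes in both.

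**Figure D3:**
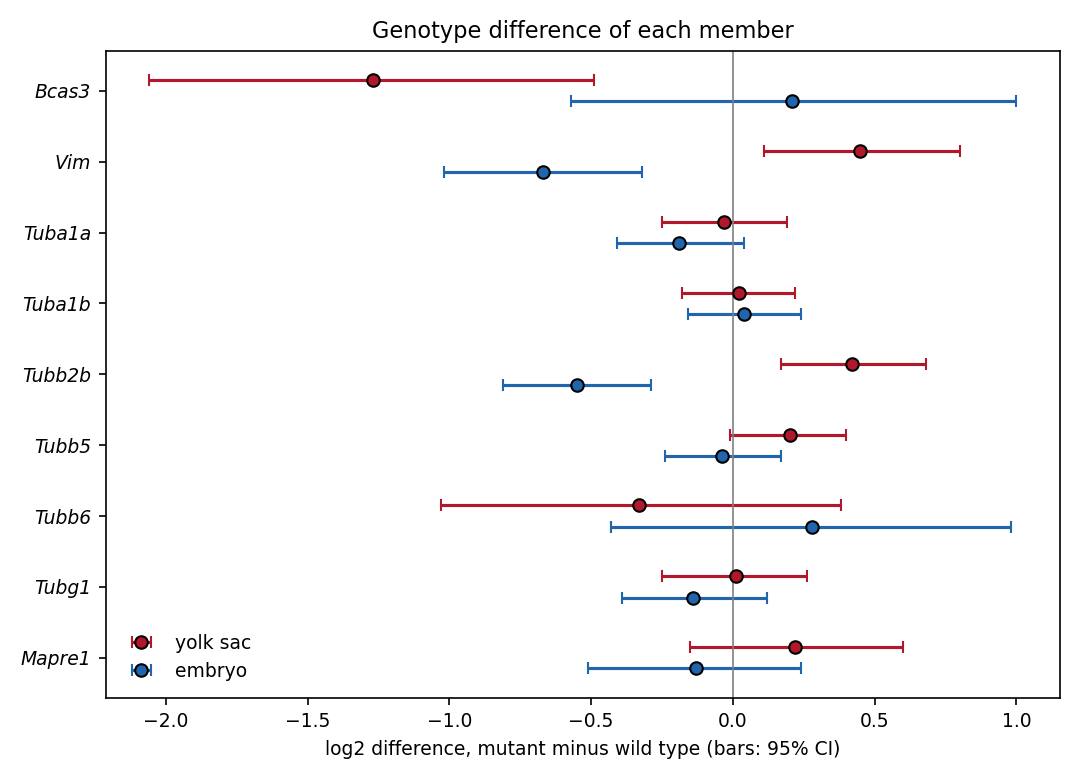
Log2 difference between mutant and wild-type samples for each of the 9 genes, with yolk sac above embryo in each pair (points, with bars for the 95% confidence interval). Vim (0.45 in yolk sac, -0.67 in embryo) and Tubb2b (0.42 and -0.55) lie on opposite sides of 0 in the tissues, and Bcas3 lies at -1.27 in yolk sac and 0.21 in embryo.

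Whether the genotype difference itself differed between the tissues was tested as an interaction, yolk sac minus embryo. Of the 9 genes 0 passed, where 0.335% of all genes did, and 3 had an unadjusted p under 0.05 in limma, where 18.7% of all genes did. The interaction was 1.12 for Vim (SE 0.21, interval 0.63 to 1.61, adjusted p = 0.0671), 0.97 for Tubb2b (SE 0.15, interval 0.61 to 1.33, adjusted p = 0.0584) and -1.49 for Bcas3 (SE 0.47, interval -2.59 to -0.38, adjusted p = 0.168). With the conceptus as a replicate block, since the yolk sac and embryo of 1 conceptus are paired, the adjusted p was 0.133 for Vim, 0.127 for Tubb2b and 0.150 for Bcas3. Vim and Tubb2b passed with an offset of 50 (adjusted p = 0.0482 and 0.0403) and with median scaling (0.0430 and 0.0424), Tubb2b also with the mean of its probes (0.0476), and Bcas3 passed without mutant embryo 1 (interaction -2.07, adjusted p = 0.0251), where the sample labelled mutant embryo 2 stands alone. All 5 detected Tubb2b probes gave an interaction above 0, from 0.54 to 1.44, with adjusted p of 0.0763 or more, where 0.109% of all probes passed.

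More genes passed between the tissues than between the genotypes. In wild-type conceptuses Bcas3 was 2.43-fold higher in yolk sac than in embryo (log2 1.28, SE 0.33, adjusted p = 0.0103), the 1 member of 9 that rose. The neural tubulin gene Tubb2b was 10.9-fold lower in yolk sac than in embryo (log2 -3.45, SE 0.11, adjusted p = 4.5e-07), and its 5 probes gave -4.30 to -2.36. Tuba1a fell by 1.57 (SE 0.09), Vim by 1.54 (SE 0.15), Tubg1 by 1.03 (SE 0.11), Tubb5 by 0.73 (SE 0.09) and Mapre1 by 0.58 (SE 0.16), with adjusted p from 6.3e-06 to 0.0128. Tuba1b at -0.17 (adjusted p = 0.120, though past the threshold in 1 of 10 alternative settings) and Tubb6 at 0.27 (adjusted p = 0.447) did not pass. That is 7 of 9 members past the threshold, where 69.5% of all tested genes passed, 33.3% higher and 36.2% lower in yolk sac. The Bcas3 call ended without wild-type yolk sac 2 (log2 1.14, adjusted p = 0.0597), and that of Mapre1 without wild-type yolk sac 2 (-0.39, adjusted p = 0.0728), without wild-type embryo 2 (-0.55, adjusted p = 0.0550) and under median scaling (-0.29, adjusted p = 0.111).

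In mutant conceptuses the Bcas3 difference between tissues did not pass. Mutant yolk sacs stood at 8.44 and 8.53 on the log2 scale, and mutant embryos at 8.11 and, in the sample labelled mutant embryo 2, 9.28, a difference of -0.21 (SE 0.33, interval -0.99 to 0.58, adjusted p = 0.600). The value was 0.38 without the sample labelled mutant embryo 2 (adjusted p = 0.113) and -0.79 without mutant embryo 1 (adjusted p = 0.00997), so its direction turned on which mutant embryo was kept. Of the 9 members 0 rose and 5 fell in mutant yolk sac against mutant embryo, where 69.3% of all genes passed, 32.7% higher and 36.5% lower in yolk sac. Tubb2b was 5.55-fold lower in mutant yolk sac than in mutant embryo (log2 -2.47, SE 0.11), Tuba1a fell by 1.42 (SE 0.09), Tubg1 by 0.88 (SE 0.11) and Tubb5 by 0.50 (SE 0.09; -0.20 under median scaling, adjusted p = 0.131). Vim fell by 0.41 (SE 0.15, adjusted p = 0.0381), a call that ended with the conceptus as a replicate block (adjusted p = 0.0621), under median scaling (-0.12, adjusted p = 0.498), and without mutant embryo 1 (0.202), mutant yolk sac 1 (0.140) or mutant yolk sac 2 (0.0688). Tuba1b at -0.18, Tubb6 at -0.33 and Mapre1 at -0.23 did not pass, and median scaling, which shifted the median of all genes to 0.12, put Tuba1b at 0.29 (adjusted p = 0.0432) and Mapre1 at 0.12. Of 10 alternative settings, Tuba1b passed below 0 in 2 and Tubb6 in 1.

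**Figure D4:**
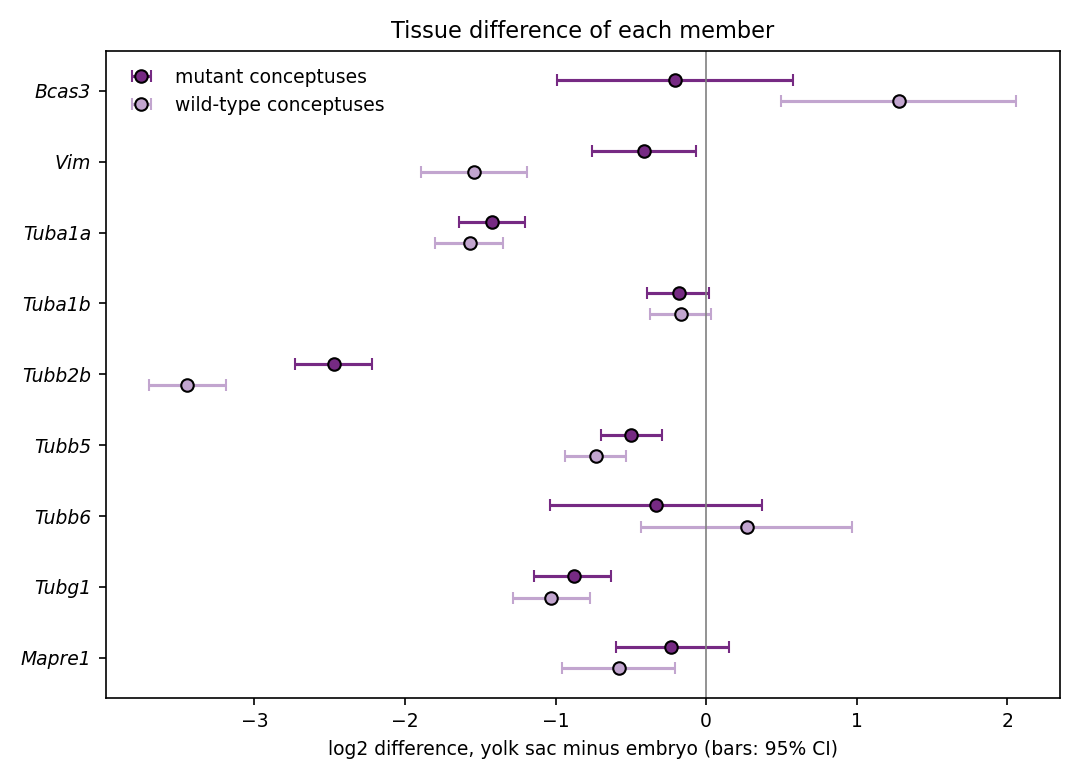
Log2 difference between yolk sac and embryo for each of the 9 genes, with mutant conceptuses above wild-type conceptuses in each pair (points, with bars for the 95% confidence interval). Bcas3 lies at -0.21 in mutants and 1.28 in wild types, Tubb2b at -2.47 and -3.45, and Tuba1b at -0.18 and -0.17.

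The order of the 4 groups differed between members. Vim and Tubb2b ran from wild-type embryo through mutant embryo and mutant yolk sac to wild-type yolk sac, and no neighbouring groups overlapped. Tuba1a, Tubg1 and Mapre1 had both embryo groups above both yolk sac groups, with the embryo groups apart and the yolk sac groups overlapping. Tubb5 had the same tissues on top with the embryo groups overlapping and the yolk sac groups apart, and for Tuba1b both pairs overlapped. Bcas3 was highest in wild-type yolk sac, apart from the other 3 groups, which overlapped from neighbour to neighbour. Tubb6 ran from mutant embryo over wild-type yolk sac and wild-type embryo to mutant yolk sac, and of neighbours in that order only wild-type yolk sac and wild-type embryo did not overlap.

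Around these members, 118 genes of the same structures were listed in 8 groups and 99 were tested. In mutant yolk sacs 0 rose and 2 fell. Tubal3, an alpha-tubulin-like gene, gave 45.7 and 48.4 in mutant yolk sacs, against 142 and 219 in wild-type yolk sacs, and fell by 1.04 (SE 0.12, adjusted p = 0.0338). Cdc42, a small GTPase of cell polarity, gave 588 and 641 in mutants, against 1166 and 1525 in wild types, and fell by 0.58 (SE 0.09, adjusted p = 0.0435). The share past the threshold, 2.02%, stands beside 1.27% of all genes. Neither call held up when samples were left out: the call of Tubal3 ended on leaving out mutant yolk sac 2 (0.104), wild-type yolk sac 1 (0.0578) or wild-type yolk sac 2 (0.155), that of Cdc42 on leaving out any single yolk sac (0.0727 to 0.168), and with the mean of all its probes Cdc42 stood at 0.03.

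In mutant embryos 7 of the 99 fell and 0 rose. Dcx and Stmn4 among them were detected in wild-type embryos alone and passed the detection filter through that group, and Stmn3 was detected outside it on 1 array, so the count is not read against the 2.13% of all genes that passed. They are microtubule and filament genes of neurons. Stmn2, a neuronal protein that destabilizes microtubules, gave 90.4 and 105 in mutant embryos, against 348 and 414 in wild-type embryos, and fell by 1.92 (SE 0.12), and Stmn3 of the same family by 1.15 (SE 0.10), detected on 1 of 4 mutant arrays. Nefm, a neurofilament subunit, gave 87.9 and 70.4 in mutants, against 346 and 385 in wild types, and fell by 2.12 (SE 0.14), and Ina, a filament protein of young neurons, by 1.21 (SE 0.12). Map2, a dendritic microtubule protein, gave 166 and 155 in mutants, against 337 and 349 in wild types, and fell by 1.11 (SE 0.13). Dcx, which binds microtubules in migrating neurons, and Stmn4 were not detected on any mutant embryo array and were at least 3.21-fold and 2.31-fold lower. In each of these genes both mutants lay below both wild types, where 26.7% of all genes were lower in this way. Since the 7 genes were picked by the threshold in the same samples, this separation adds no support to their calls. Their adjusted p ran from 0.00159 to 0.0113. Without the sample labelled mutant embryo 2, Map2 (0.0712) and Ina (0.0555) did not pass. In the pair of embryos named in the series design, Map2 (0.161), Ina (0.135), Stmn3 (0.0919) and Stmn4 (0.0554) did not pass, nor did Map2 with embryos fitted alone (0.0572). With the authors' processed values none of the 7 passed (0.0743 to 0.277), where 0 genes of the whole array passed in limma and 1059 had an unadjusted p under 0.05. Dcx, Stmn2, Nefm and Ina are also on the neuron marker list above, so they are not a separate measurement of it.

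By group, 2 of 16 plus-end and stabilizing genes fell in mutant embryos (Dcx and Map2), 3 of 11 destabilizing and severing genes (Stmn2, Stmn3 and Stmn4) and 2 of 11 intermediate filament genes other than Vim (Nefm and Ina). None of 12 other tubulins, 8 genes of the gamma-tubulin ring complex, 18 of tubulin folding, 11 of tubulin modification or 12 of the BCAS3 partner and cell polarity group passed there in limma. Their medians in mutant embryos ran from -0.16 in tubulin modification to 0.05 in tubulin folding. Of all genes 2.13% passed in embryo, so 0 calls in groups of 8 to 18 genes do not set these groups apart. The counts of the groups with calls include Dcx and Stmn4, kept through wild-type embryos alone, and are not read against that share. In the interaction 6 of the 99 passed, all above 0. Nefm, at 2.40, and Ina, at 1.44, were detected on at least 1 array of every group. Each was detected on only 1 of 4 wild-type yolk sac arrays, so their values there lie near the detection limit. The others were Dcx, Stmn3 and Stmn4, not detected on any yolk sac array, and Stmn2, not detected in wild-type yolk sacs, so their interactions have no measured size and the count is not read against the 0.335% of all genes that passed. With the conceptus as a replicate block none of the 6 passed (adjusted p = 0.0751 to 0.105), nor did any without mutant yolk sac 2 (0.0579 to 0.108), wild-type yolk sac 1 (0.0523 to 0.0795), wild-type yolk sac 2 (0.0589 to 0.109) or the sample labelled mutant embryo 2 (0.0640 to 0.121).

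The other tubulins were also compared between the tissues. In wild-type yolk sac against wild-type embryo 5 of 12 rose, 4 fell and 3 did not pass. Tubal3 and Tubb4a were detected in 1 tissue alone and Tuba8 in wild-type yolk sacs alone. Each passed the detection filter through those arrays, so the counts of these 12 genes are not read against the 69.5% of all genes that passed. Tubal3 was at least 4.92-fold higher in yolk sac, since it was not detected in wild-type embryos, Tubb1, the beta-tubulin of platelets, was 4.10-fold higher (log2 2.03, SE 0.27), and Tubb4a, a beta-tubulin of brain, was at least 5.03-fold lower, undetected in yolk sac. In mutants 6 of 12 rose and 4 fell, with Tubb1 at 2.63 (SE 0.27), Tubal3 at least 2.54-fold higher and Tubb4a at least 4.86-fold lower in yolk sac. Over all 99 genes 19 rose and 48 fell in wild types, 67.7%, and 21 rose and 47 fell in mutants, 68.7%. Of all genes 33.3% were higher and 36.2% lower in wild types, and 32.7% and 36.5% in mutants. Only the totals, 69.5% and 69.3% of all genes, were thus close to those of the 99. Genes detected in 1 tissue alone are among these counts too, so the split by direction is not read further. In wild types the genes of largest change in the other groups were Map1b, an axonal microtubule protein, at -3.96 (-2.07 with the mean of its probes), Nefm at -3.52 (-2.24 with the mean of its probes), detected on 1 wild-type yolk sac array, Nme7, a component of the gamma-tubulin ring complex, at 2.68, and the polarity kinase gene Prkcz at 2.49. The Nme7 value was 0.37 with the mean of its probes. Ttl, the tubulin tyrosine ligase gene, fell by 1.70, Stmn2 was at least 11.1-fold lower and Pfdn1, a prefoldin subunit, at least 1.41-fold higher in yolk sac.

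**Figure D5:**
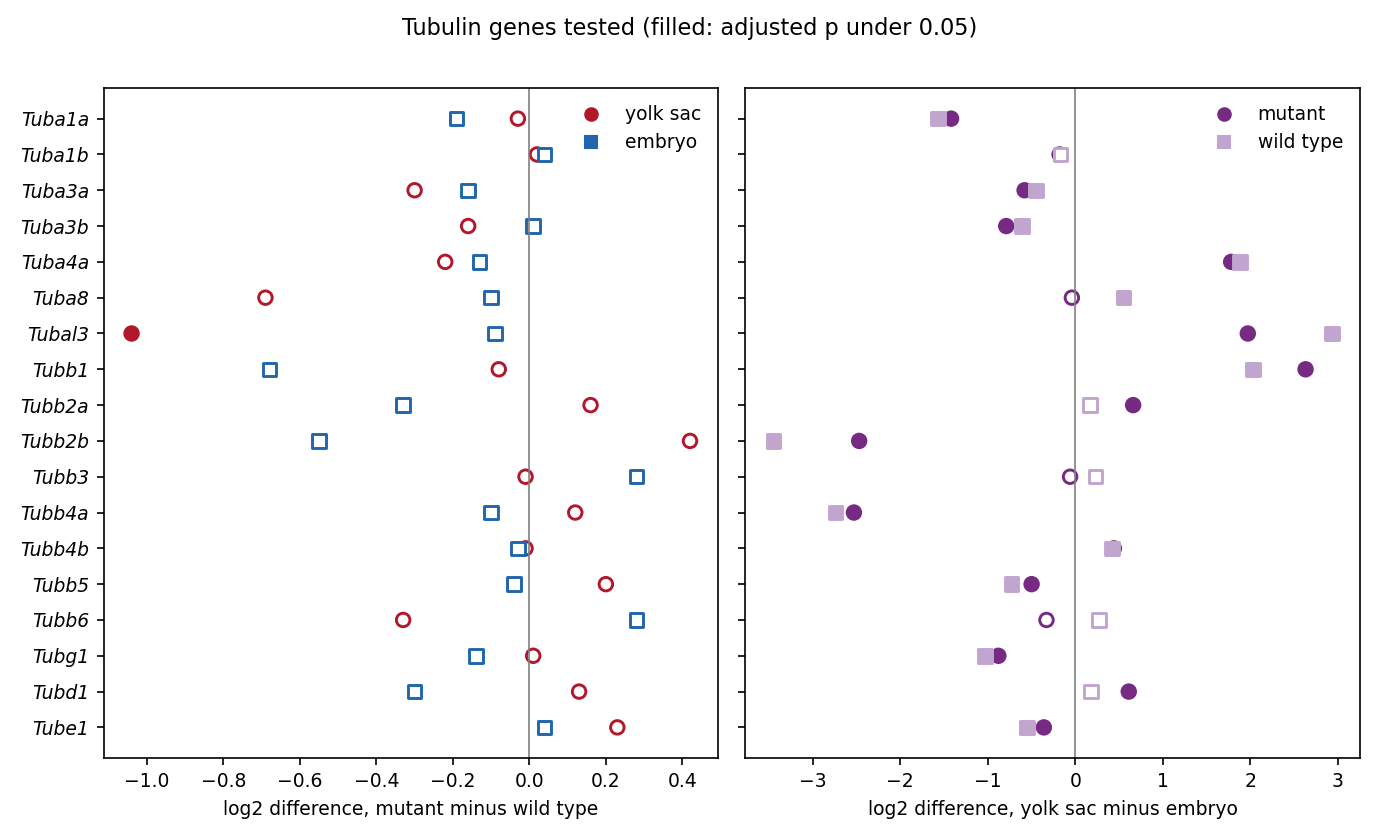
Log2 difference of the 18 tested tubulin genes, members included, between mutant and wild-type samples (left; circles yolk sac, squares embryo) and between yolk sac and embryo (right; circles mutant, squares wild type); filled symbols passed at an adjusted p under 0.05. On the left only Tubal3 in yolk sac is filled, at -1.04, and on the right Tubb2b lies at -2.47 in mutants and -3.45 in wild types. Tubal3, undetected in embryo, Tubb4a, undetected in yolk sac, and Tuba8, detected in wild-type yolk sac alone, are drawn at their fitted values.

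The genes whose levels followed Bcas3 most closely over the 8 samples were Pygl, the liver form of glycogen phosphorylase, with a Pearson correlation of 0.929, Noxo1 (0.928), Atp2b4, a plasma membrane calcium pump (0.922), S100a14 (0.922) and Pnpla5 (0.917). Without the sample labelled mutant embryo 2 these 5 values were 0.917 to 0.969. Vim was followed most closely by Nelfb, a subunit of the negative elongation factor (0.993), Notch4, a Notch receptor of endothelium (0.991), and Gtf3a, the transcription factor for 5S RNA genes (0.982). The 8 samples come from 4 conceptuses and 2 tissues, and for Vim the difference between the tissues carries most of the variation, so these values describe likeness in these samples only.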

How the data were processed

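RNA of 8 samples was read on 16 arrays. Per the labels, total RNA was Trizol-extracted, checked on a Bioanalyzer and labelled with the Ambion MessageAmp kit. The deposited probe intensity had its background removed by the authors and is unscaled; the software is not given in the sources used here. The columns deposited as p-values hold a score of 0 to 1 that did not follow the signals (Spearman correlation 0.00157 to 0.0106 over arrays), so the deposited score was matched to the signals by rank within an array and 1 minus it was used as detection p, an assumption the sources do not settle. The authors' processed values are log2 values centred per probe within a tissue, with array medians from -0.28 to 0.15, and serve only as an alternative; higher stands for more signal, and what their scaling was based on stays unknown.

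Signals were normalized with neqc (offset 16, quantile, log2; limma 3.58.1, R 4.3.3), and repeat arrays were averaged. A probe was kept when detected at p under 0.05 on at least 4 arrays (21193 probes), and a gene was read by its kept probe of highest mean level (11329 genes). A probe below detection on every array of a group gives a bound ("at least"), from the lowest detected signal of each array. A model with 1 mean per group (4 residual and 3.36 prior degrees of freedom) gave two-sided p-values, adjusted by Benjamini-Hochberg over all genes with a threshold of 0.05. With 2 samples against 2, exact permutation cannot go below p = 0.333. The pair of embryos named in the series design was fitted with the yolk sacs (2 residual degrees of freedom, so embryos were assumed to vary like yolk sacs).

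Embryo and yolk sac of 1 number within a genotype are from 1 conceptus by the labels, so tissue contrasts and the interaction were also fitted with it as a replicate block; between genotypes the numbers are only shared names. Members and lists were chosen with earlier results of these data known. Named were the members, up to 3 genes per list and comparison of largest change past the threshold (fewer are printed for tissues), and the 5 and 3 genes most correlated with Bcas3 and Vim. Gene positions are those of RefSeq on GRCm38.p6, matched by symbol. The number of arrays limits the precision.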

Additional observations from a re-analysis of the deposited data

Results flagged for a closer look

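For Vim and for Tubb2b every mutant yolk sac lay above every wild-type yolk sac in normalized level and every mutant embryo lay below every wild-type embryo. The difference between the genotype effects, yolk sac minus embryo, was 1.12 for Vim (adjusted p = 0.0671) and 0.97 for Tubb2b (adjusted p = 0.0584) on the log2 scale in limma, and neither passed. Before scaling the yolk sac signals of both genes overlapped, and the mutant yolk sac arrays were dimmer; the embryo signals of both genes did not overlap as deposited. Of the 5 Tubb2b probes, 1 was lower in mutant yolk sacs.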

How the results depend on the processing

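Of the members' values under other settings, 490 kept direction and side of the threshold, 13 passed where they had not, 11 no longer passed and 26 changed sign; of the companion genes' values 215 were kept, 69 no longer passed and 1 changed sign. Counts of genes past the threshold over the whole array, 144 in yolk sac (65 higher, 79 lower in mutants), 241 in embryo and 38 in the interaction, depended on the setting. In yolk sac the count was 241 with an offset of 50, 0 with first arrays only, 55 with the authors' processed values (37 higher, 18 lower, the median of all genes at 0.10) and 0 with yolk sacs fitted alone; median scaling gave 112 higher and 71 lower. In embryo it was 0 with the authors' values (1059 at an unadjusted p under 0.05 in limma), 24 with embryos fitted alone and 24 in the named pair. In the interaction it was 81 without a filter, 150 with an offset of 50, 218 with median scaling, 18 with first arrays only, 2 with the authors' values and 0 with the conceptus as a replicate block (1983 at an unadjusted p under 0.05). With the replicate number as a replicate block, the yolk sac count was 0 (2401 unadjusted) and the embryo count 174; the samples share only the number, and with 2 pairs no check of pairing is possible. With 1 sample left out the counts were 0 to 110 in yolk sac, 51 to 208 in embryo and 0 to 86 in the interaction, the lone sample being assumed to vary like the other groups. Median scaling split the tissue calls 4133 higher to 3528 lower in wild types and 4458 to 3213 in mutants, against 3767 to 4106 and 3710 to 4138. Some signs changed from a small main value, though not always to a small one. Tuba1a in yolk sac changed to 0.11 (median scaling), 0.07 (mean of probes), 0.21 (authors' values) and -0.08 to 0.03 over samples left out. Tubb5 in embryo changed to 0.00 (median scaling and first arrays) and 0.08 (authors' values), and Mapre1 in embryo to 0.02 (authors' values). Tubg1 in yolk sac changed to -0.02 (first arrays) and -0.09 to 0.11 over samples left out. Tuba1b in the interaction, -0.02 in the main fit, changed to 0.34 (median scaling), 0.00 (first arrays) and 0.37 (authors' values). Over samples left out, Tuba1b ran from -0.06 to 0.02 in the interaction, from -0.01 to 0.05 in yolk sac and from 0.00 to 0.08 in embryo. With samples left out, Bcas3 ran from -0.37 to 0.80 in embryo and from -0.79 to 0.38 between mutant tissues, and Tubb6 from -0.82 to 0.17 in yolk sac and from -0.83 to 0.16 between mutant tissues. Bcas3 in embryo was -0.51 in the named pair, Tuba1b and Mapre1 between mutant tissues 0.29 and 0.12 under median scaling, and Cdc42 in yolk sac 0.03 with the mean of its probes; the cause was not tested. A slide block was not run, since the files give no slide.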
